A study of Mus musculus with 5 samples.

Results

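The insulin-like growth factor 1 (IGF1) system was measured through 9 genes, namely the ligand Igf1, the receptors Igf1r and Igf2r, and the binding proteins Igfbp2, Igfbp3, Igfbp4, Igfbp5, Igfbp6 and Igfbp7. They were chosen by name and matched to rows of the count table by Ensembl identifier, and they are 9 of its 30046 features. Of these, 8 were among the 10088 protein-coding genes and reporters tested, those for which 2 or more libraries reached a CPM of 10 (CPM, counts scaled to the size of the library). Igfbp6 did not reach that level.

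The libraries are bulk RNA-seq of Cxcl12-GFP-high tdTomato+ cells, the Cxcl12-abundant reticular (CAR) stromal cells of the marrow, sorted from mouse femurs at postnatal day 21. Dlx5CE-E12.5 cells (3 libraries) came from Cxcl12(GFP/+); Dlx5(CreER/+); R26R(tdTomato/+) mice, and Fgfr3CE-E12.5 cells (2 libraries) came from Cxcl12(GFP/+); Fgfr3-iCreER; R26R(tdTomato/+) mice. All mice received tamoxifen at embryonic day 12.5, so that tdTomato marks the progeny of cells in which the driver was active at that time, fetal perichondrial cells for Dlx5 and fetal chondrocytes for Fgfr3. The comparison asks how marrow stromal cells of these separate fetal origins differ at the same age and under the same Cxcl12-GFP gate. All mice of both groups carried the GFP insertion on 1 Cxcl12 allele. The study pooled marrow cells of littermates by genotype and treats the libraries as biological replicates. How the mice of each lineage were divided among its libraries is unclear from the sources used. Total counts were 32563758, 22035650 and 27135553 in Dlx5CE-E12.5 replicates 1, 2 and 3, and 56355203 and 58166285 in Fgfr3CE-E12.5 replicates 2 and 3. According to the study's methods the Dlx5CE-E12.5 libraries were read paired-end with long reads on a NovaSeq and the Fgfr3CE-E12.5 libraries single-end with short reads on a HiSeq, while the labels name a HiSeq for all. Sequencing mode and lineage therefore cannot be told apart.

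IGF1 is a secreted peptide that binds the tyrosine kinase receptor IGF1R, which signals through insulin receptor substrates to the PI3K-AKT and RAS-ERK cascades. IGF2R, the cation-independent mannose 6-phosphate receptor, binds mainly IGF2 and carries it to lysosomes, and the binding proteins hold IGFs in the extracellular space, where they block or prolong their action until proteases release them. In bone, IGF1 acts on growth plate chondrocytes and on cells of the osteoblast lineage, and IGFBP5 and IGFBP3 store it in the matrix.

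The promoters of Igf1 and Igfbp5, which were higher in Dlx5CE-E12.5 cells, and of Igfbp4 and Igfbp7, whose means were higher in Fgfr3CE-E12.5 cells, are given as sequences, since these genes carry the differences in ligand and binding protein levels described after them. Each is the 250 bases before a start site, 5′ to 3′ on the gene's own strand, from RefSeq on GRCm38.p6. For Igf1 this site lies inside the annotated gene, which starts at 87858265, and the sequence before the gene's first base was not searched. The site of Igfbp5 also lies inside its gene, which on the minus strand starts at 72874884, but most of that window precedes the gene. The windows lie at chr10:87860861-87861110 (plus strand) for Igf1, chr1:72874866-72875115 (minus strand) for Igfbp5, chr11:99040994-99041243 (plus strand) for Igfbp4 and chr5:77408046-77408295 (minus strand) for Igfbp7. Capitals mark matches, on either strand, to any of 5 motifs.
Igf1: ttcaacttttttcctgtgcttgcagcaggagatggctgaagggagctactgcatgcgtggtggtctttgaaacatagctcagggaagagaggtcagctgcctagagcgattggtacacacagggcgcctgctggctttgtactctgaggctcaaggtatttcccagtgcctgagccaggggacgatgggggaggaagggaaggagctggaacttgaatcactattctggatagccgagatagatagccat
Igfbp5: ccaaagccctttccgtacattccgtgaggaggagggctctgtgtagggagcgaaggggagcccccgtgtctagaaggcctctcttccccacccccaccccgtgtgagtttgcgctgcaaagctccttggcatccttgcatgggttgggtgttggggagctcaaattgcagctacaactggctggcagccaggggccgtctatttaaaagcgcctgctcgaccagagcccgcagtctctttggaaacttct
Igfbp4: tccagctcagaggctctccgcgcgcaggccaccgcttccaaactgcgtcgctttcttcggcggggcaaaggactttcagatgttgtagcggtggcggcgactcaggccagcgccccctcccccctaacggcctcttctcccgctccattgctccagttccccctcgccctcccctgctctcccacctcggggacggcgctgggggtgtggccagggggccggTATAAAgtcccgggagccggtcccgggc
Igfbp7: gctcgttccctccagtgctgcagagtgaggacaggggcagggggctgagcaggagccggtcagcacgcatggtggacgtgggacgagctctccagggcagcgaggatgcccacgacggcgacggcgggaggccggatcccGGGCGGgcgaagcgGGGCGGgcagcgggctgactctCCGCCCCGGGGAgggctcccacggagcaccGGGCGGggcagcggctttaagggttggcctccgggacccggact

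The motifs searched were the TATA box (TATAAA), the GC box (GGGCGG), the RUNX core (TGTGGT), a forkhead motif (GTAAACA) and an EBF motif (TCCCNNGGG). Among 32851 RefSeq promoter windows of the same length, 12.4% held the TATA box, 32.7% the GC box, 14% the RUNX core, 3.17% the forkhead motif and 5.6% the EBF motif. Igfbp4 held 1 TATA box, 22 bases before its start site, and Igfbp7 held 4 GC boxes and 1 EBF motif, which overlaps 1 of those boxes. The windows of Igf1 and Igfbp5 held none of these 5 strings. GC content was 52.8% for Igf1, 58.8% for Igfbp5, 69.2% for Igfbp4 and 74% for Igfbp7, against a median of 52.4% over all windows. All 9 genes had an entry, 10 windows in all because Igfbp2 has 2, the second of which lies inside the annotated gene. Of these, 4 held a GC box (Igf1r, Igf2r, Igfbp7 and the first of Igfbp2), 2 a TATA box (Igfbp4 and Igfbp6), 1 the RUNX core (Igfbp3), 1 the EBF motif (Igfbp7) and 0 the forkhead motif. The TATA box of Igfbp6 lay 142 bases before its start site. For Igf1r, Igf2r, Igfbp6 and the first window of Igfbp2, the start site was not found in the annotated transcripts. A match describes the letters only, and binding was not measured.

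The IGF genes divided by lineage in a way that split the binding proteins. Igf1, both receptors, Igfbp2, Igfbp3 and Igfbp5 were higher in Dlx5CE-E12.5 cells, Igfbp7 was higher in Fgfr3CE-E12.5 cells, and Igfbp4 had the higher mean in Fgfr3CE-E12.5 cells without passing the fold threshold. A gene was called when edgeR's quasi-likelihood test gave an adjusted p under 0.05 and the log2 fold change was beyond 1 in either direction. By this rule 7 of the 8 tested IGF genes were called, against 29.5% of all genes tested. Of the 7, 6 were higher in Dlx5CE-E12.5 cells (13.1% of all genes tested) and 1 in Fgfr3CE-E12.5 cells (16.4%). One of the former, Igfbp2, reached the CPM minimum in Dlx5CE-E12.5 libraries only, a selection that favours a difference; without it 5 and 1 were called. All 8 had an adjusted p under 0.05, which 48.4% of all genes tested also had. The libraries of the lineages did not overlap for any of the 8, which was also so for 68.9% of all genes tested. The median log2 fold change, Fgfr3CE-E12.5 over Dlx5CE-E12.5, was -1.71 over the 8, -1.42 without Igfbp2 and 0.01 over all genes tested, and the median absolute value was 2.01 with or without Igfbp2 against 0.54. Because RNA was taken from bulk cells, fewer cells expressing a gene and less RNA per cell cannot be told apart.

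**Figure D1:**
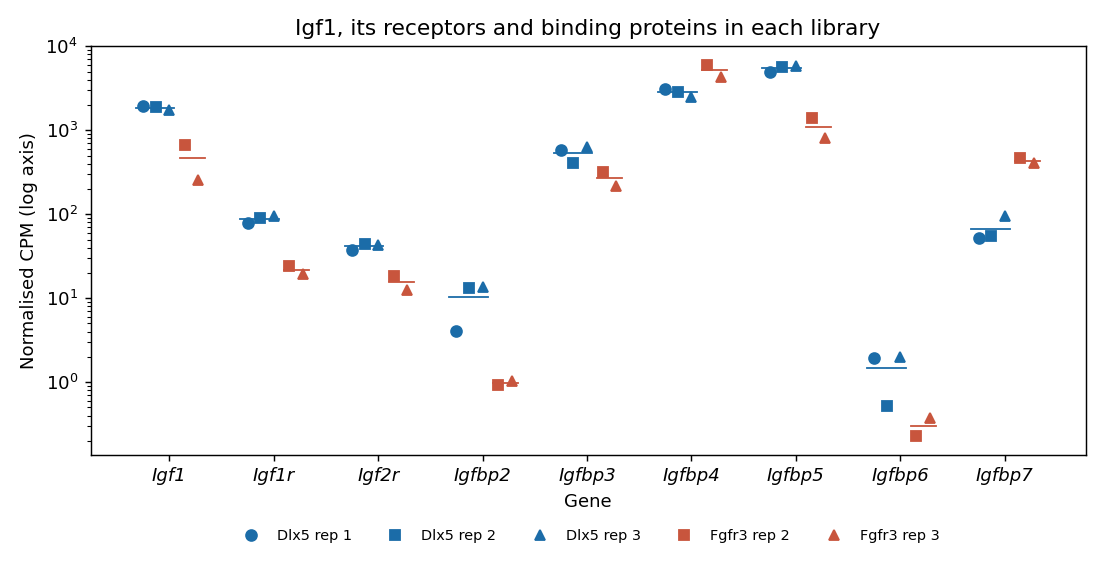
Normalised CPM (log axis) of the 9 IGF genes in each library, with a line at each group's mean; blue, Dlx5CE-E12.5 (3 libraries); red, Fgfr3CE-E12.5 (2 libraries). Igf1 and Igfbp5 stand lower, and Igfbp4 and Igfbp7 higher, in both Fgfr3CE-E12.5 libraries than in any Dlx5CE-E12.5 library.

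Igf1 (ENSMUSG00000020053), on the plus strand of chromosome 10 at 87858265 to 87937042 of GRCm38, encodes the ligand. Normalised CPM, scaled by TMM factors, was 1933, 1887 and 1748 in Dlx5CE-E12.5 replicates 1, 2 and 3, and 665 and 259 in Fgfr3CE-E12.5 replicates 2 and 3. The Dlx5CE-E12.5 libraries lay within 1.11-fold of each other, while Fgfr3CE-E12.5 replicate 2 was 2.57-fold above replicate 3 and still below every Dlx5CE-E12.5 library. Mean levels were 1856 ± 96.1 CPM (SD, n = 3) and 462 ± 287 CPM (SD, n = 2), a log2 fold change of -2.01 (SE 0.39, adjusted p = 0.00544 in edgeR). The size of this difference depended on the Fgfr3CE-E12.5 library, with a log2 fold change of -2.77 without replicate 2 and -1.42 without replicate 3. Igf1 took 0.182%, 0.182% and 0.162% of all counts in Dlx5CE-E12.5 libraries and 0.0726% and 0.0282% in Fgfr3CE-E12.5 libraries.

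The genes whose pattern over the 5 libraries was nearest to that of Igf1 were Slfn8, Ypel2 and Nfia, with root mean square differences of 0.08, 0.11 and 0.12 in centred log2(CPM + 0.5). Their log2 fold changes, which this selection fixes near that of Igf1, were -1.94, -2.08 and -1.85. In all, 10 tested genes lay within 0.15 of Igf1. Igf1os, an antisense transcript within the Igf1 locus, had 1, 8 and 6 counts in Dlx5CE-E12.5 libraries and 2 and 17 in Fgfr3CE-E12.5 libraries, against 16422 to 59244 counts of Igf1.

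Igf1r (ENSMUSG00000005533; chromosome 7, 67952827 to 68233668, plus strand), the signalling receptor, was measured at 77.6, 91.3 and 95.1 CPM in Dlx5CE-E12.5 replicates 1, 2 and 3 and at 24.4 and 19.2 CPM in Fgfr3CE-E12.5 replicates 2 and 3. Replicates were close in both groups, and every Fgfr3CE-E12.5 value was below every Dlx5CE-E12.5 value. The log2 fold change was -2.01 (SE 0.18, adjusted p = 0.000242 in edgeR), a 4.04-fold difference. With the trend on exon length removed it was -1.26, against -1.69 for Igf1. The genes differed in spread, since the ratio of Fgfr3CE-E12.5 replicate 2 to replicate 3 was 1.27 for Igf1r and 2.57 for Igf1.

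Igf2r (ENSMUSG00000023830; chromosome 17, 12682406 to 12769664, minus strand), the scavenging receptor, was at 37.8, 44.1 and 42.9 CPM in Dlx5CE-E12.5 libraries and at 18.5 and 12.5 CPM in Fgfr3CE-E12.5 libraries. It was again lower in both Fgfr3CE-E12.5 libraries, though by less than Igf1r in the fit, with a log2 fold change of -1.42 (SE 0.22, adjusted p = 0.00200 in edgeR). With the trend on exon length removed, the values were close, at -1.13 for Igf2r and -1.26 for Igf1r. Whether these 2 receptors differ from each other in their response was not tested. The call on Igf2r was lost in limma on the deposited rlog values and in edgeR's test of a change above 2-fold. The pattern of Igf2r was shared widely, with 186 tested genes within 0.15 of it against 57 for Igf1r.

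Igfbp5 (ENSMUSG00000026185; chromosome 1, 72857932 to 72874884, minus strand), a matrix-bound binding protein of bone, gave 4965, 5595 and 5871 CPM in Dlx5CE-E12.5 replicates 1, 2 and 3 and 1400 and 799 CPM in Fgfr3CE-E12.5 replicates 2 and 3. The Dlx5CE-E12.5 libraries were all high, and Fgfr3CE-E12.5 replicate 3 was the lowest. Group means were 5477 ± 465 CPM (SD, n = 3) and 1099 ± 425 CPM (SD, n = 2), a 4.98-fold difference (log2 fold change -2.32, SE 0.29, adjusted p = 0.000840 in edgeR). Without Fgfr3CE-E12.5 replicate 3 the log2 fold change was -1.91, and without replicate 2 it was -2.70.

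Igfbp2 (ENSMUSG00000039323; chromosome 1, 72824503 to 72852474, plus strand) lies tail to tail with Igfbp5, 5457 bases away with no annotated gene between them. Normalised CPM of Igfbp2 was 4.08, 13.4 and 13.6 in Dlx5CE-E12.5 libraries and 0.926 and 1.03 in Fgfr3CE-E12.5 libraries, from 125, 285, 341, 57 and 65 counts. It was low everywhere, lowest in Fgfr3CE-E12.5 cells, and Dlx5CE-E12.5 replicate 1 stood 3.33-fold below the highest replicate of its group. The fitted difference was a log2 fold change of -3.40 (SE 0.59, adjusted p = 0.00349 in edgeR). Igfbp2 entered the test only through Dlx5CE-E12.5 replicates 2 and 3, the group where it is high, and without either of them it fell under the filter.

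Igfbp3 (ENSMUSG00000020427; chromosome 11, 7206086 to 7213923, minus strand), the main carrier of IGFs in the circulation, was at 584, 407 and 627 CPM in Dlx5CE-E12.5 replicates 1, 2 and 3 and at 318 and 219 CPM in Fgfr3CE-E12.5 replicates 2 and 3. The groups did not overlap, but the lowest Dlx5CE-E12.5 library and the highest Fgfr3CE-E12.5 library were close. The log2 fold change of -1.01 (SE 0.25, adjusted p = 0.0153 in edgeR) lay at the fold threshold. The call was lost in 9 of 18 alternatives, among them the fits without Dlx5CE-E12.5 replicate 1 (-0.95), without Dlx5CE-E12.5 replicate 3 (-0.89) and without Fgfr3CE-E12.5 replicate 3 (-0.70).

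Igfbp4 (ENSMUSG00000017493; chromosome 11, 99041244 to 99054392, plus strand), which holds IGFs until the protease PAPP-A cleaves it, gave 3141, 2855 and 2489 CPM in Dlx5CE-E12.5 libraries and 6066 and 4365 CPM in Fgfr3CE-E12.5 libraries. It was abundant in all 5 libraries and highest in Fgfr3CE-E12.5 replicate 2. Means were 2828 ± 327 CPM (SD, n = 3) and 5215 ± 1203 CPM (SD, n = 2), a log2 fold change of 0.88 (SE 0.21, adjusted p = 0.0127 in edgeR), below the fold threshold. Without Fgfr3CE-E12.5 replicate 3 it reached 1.16 and was called, and it was also called with library size alone in place of TMM. Without Dlx5CE-E12.5 replicate 2 or 3 its adjusted p in edgeR was 0.0571 or 0.0600, over a range of log2 fold changes from 0.68 to 1.16 in the alternatives. The genes nearest to Igfbp4 in pattern were 1700066M21Rik, Smim13 and Gtf3c4, with root mean square differences of 0.05, 0.05 and 0.06. Of the 50-base windows of its transcripts, 1.72% also occur in transcripts of other genes.

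Igfbp7 (ENSMUSG00000036256; chromosome 5, 77349240 to 77408041, minus strand), a related protein with low affinity for IGFs, was measured at 51.8, 55.2 and 95.8 CPM in Dlx5CE-E12.5 replicates 1, 2 and 3 and at 466 and 402 CPM in Fgfr3CE-E12.5 replicates 2 and 3. Both Fgfr3CE-E12.5 libraries were far above all Dlx5CE-E12.5 libraries, and they lay within 1.16-fold of each other. Means of 67.6 ± 24.5 CPM (SD, n = 3) and 434 ± 45.3 CPM (SD, n = 2) gave a 6.42-fold difference (log2 fold change 2.68, SE 0.28, adjusted p = 0.000427 in edgeR). Igfbp7 shares 85 exon bases, 7.03% of its exon length, with Polr2b on the opposite strand, and the sources used do not state the strand setting of the counting. Polr2b was at 85.1, 62.4 and 62.5 CPM in Dlx5CE-E12.5 libraries and at 102 and 78.9 CPM in Fgfr3CE-E12.5 libraries.

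Igfbp6 (ENSMUSG00000023046; chromosome 15, 102144362 to 102149511, plus strand), which prefers IGF2, had 59, 11 and 50 counts in Dlx5CE-E12.5 libraries and 14 and 24 counts in Fgfr3CE-E12.5 libraries. In CPM this was 1.92, 0.518 and 1.99 against 0.228 and 0.379, all above the smallest detectable amount of 3 counts (0.0516 to 0.136 CPM). It reached a CPM of 1 only in Dlx5CE-E12.5 replicates 1 and 3, so a fit of every gene for which 2 or more libraries reached that level (log2 fold change -2.30, SE 0.78) selects for a difference and is no test of it. With no filter the log2 fold change was -2.28 (adjusted p = 0.0807 in edgeR), not called.

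**Figure D2:**
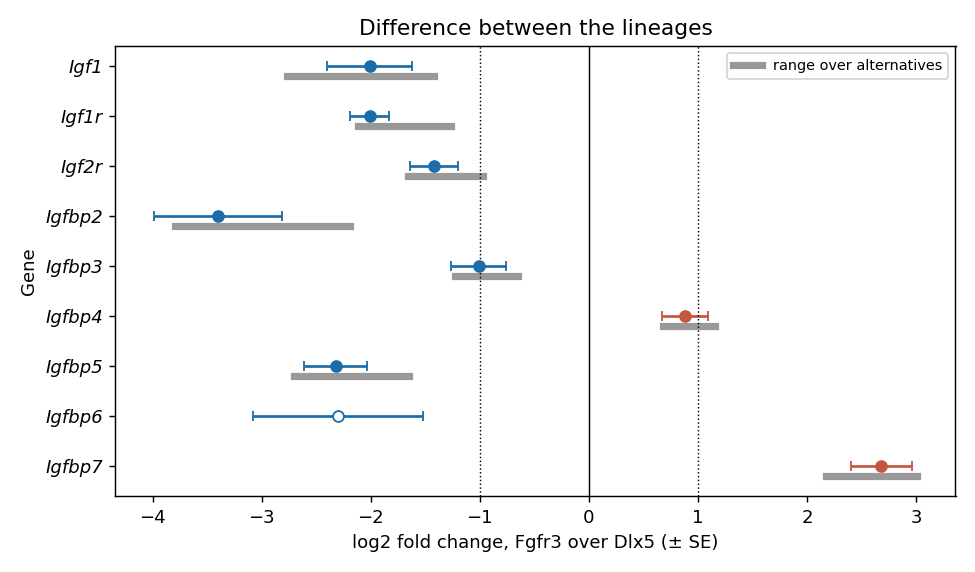
Points are log2 fold changes, Fgfr3CE-E12.5 over Dlx5CE-E12.5, with their SE; grey bars span the values under the alternatives, dotted lines mark the fold threshold, and the open point (Igfbp6) comes from the fit with the lower CPM minimum. Igfbp3 (-1.01) and Igfbp4 (0.88) lie at or near the threshold, and no bar crosses 0 (Igfbp6 has 1 alternative only).

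Levels were compared between genes on the scale of normalised CPM per kilobase of exon. In Dlx5CE-E12.5 cells the order was Igfbp5 (912 ± 77.4, SD, n = 3), Igfbp4 (640 ± 74.0), Igf1 (187 ± 9.71), Igfbp3 (172 ± 37.3), Igfbp7 (55.9 ± 20.3), Igfbp2 (5.61 ± 2.94), Igf1r (5.24 ± 0.546), Igf2r (4.47 ± 0.361) and Igfbp6 (1.33 ± 0.747). Neighbours overlapped in their libraries for Igf1 and Igfbp3, for Igfbp2 and Igf1r, and for Igf1r and Igf2r. In Fgfr3CE-E12.5 cells the order was Igfbp4 (1181 ± 272, SD, n = 2), Igfbp7 (359 ± 37.5), Igfbp5 (183 ± 70.7), Igfbp3 (85.7 ± 22.3), Igf1 (46.7 ± 29.0), Igf2r (1.66 ± 0.458), Igf1r (1.30 ± 0.216), Igfbp2 (0.528 ± 0.0379) and Igfbp6 (0.273 ± 0.0961). Igf2r and Igf1r overlapped there, and the other neighbours did not. In both lineages the receptor transcripts were far below the most abundant binding proteins on this scale.

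The make-up of the binding protein transcripts, as shares of their summed CPM per kilobase, was alike within each lineage and differed between them. Igfbp5 made up 46.7%, 52.9% and 53.4% in Dlx5CE-E12.5 replicates 1, 2 and 3, and 11.1% and 8.73% in Fgfr3CE-E12.5 replicates 2 and 3. Igfbp4 made up 40.2%, 36.7% and 30.8%, and 65.6% and 64.8%. The leading binding protein was thus Igfbp5 in each Dlx5CE-E12.5 library and Igfbp4 in each Fgfr3CE-E12.5 library. Igfbp7 went from 2.42%, 2.59% and 4.33% to 18.4% and 21.8%, second to Igfbp4. Igfbp3 made up 7.38% to 10.9% in Dlx5CE-E12.5 libraries and 4.84% and 4.59% in Fgfr3CE-E12.5 libraries, and Igfbp2 and Igfbp6 were each under 1% in every library.

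**Figure D3:**
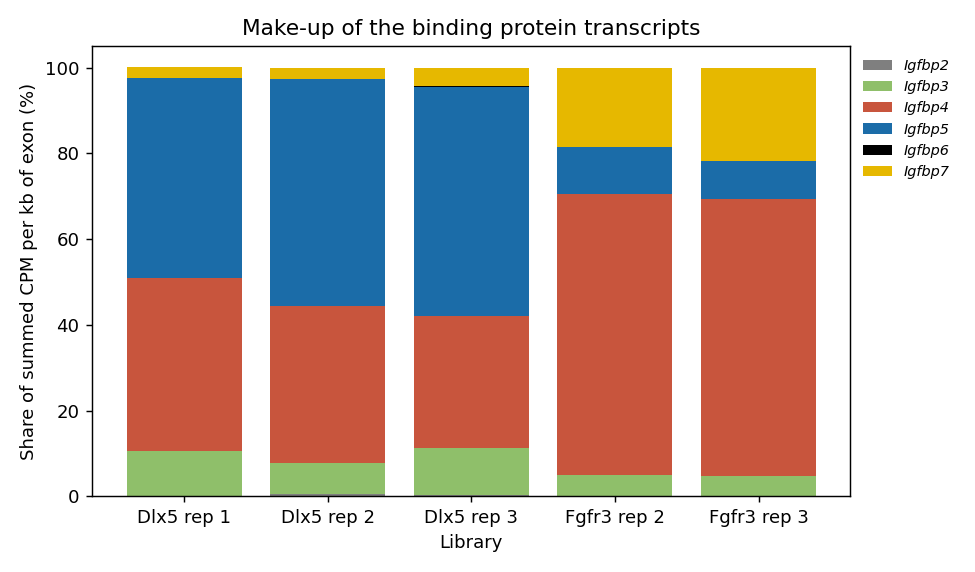
Share of each binding protein (%) in the summed CPM per kilobase of exon of the 6 Igfbp genes, by library. Igfbp5 (blue) is the largest share in the Dlx5CE-E12.5 libraries (46.7% to 53.4%) and Igfbp4 (red) in the Fgfr3CE-E12.5 libraries (65.6% and 64.8%).

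The summed binding protein level, Igfbp7 included, did not separate the lineages. It was 1771, 1761 and 1830 CPM per kilobase in Dlx5CE-E12.5 replicates 1, 2 and 3, and 2094 and 1525 in Fgfr3CE-E12.5 replicates 2 and 3, so that the groups overlapped. Relative to Igf1 on the same scale, the summed binding proteins stood at 9.08, 9.25 and 10.4 in Dlx5CE-E12.5 libraries and at 31.2 and 58.3 in Fgfr3CE-E12.5 libraries. Igfbp7, with its low affinity for IGFs, made up 2.42% to 4.33% of the sum in Dlx5CE-E12.5 libraries. In Fgfr3CE-E12.5 libraries it made up 18.4% and 21.8%, so the sum and its ratio to Igf1 depend on counting it. Counts of Igfbp4 per count of Igfbp5 were 0.633, 0.510 and 0.424 against 4.33 and 5.46. The 9 genes together took 1.02%, 1.05% and 1.02% of all counts in Dlx5CE-E12.5 libraries and 0.978% and 0.662% in Fgfr3CE-E12.5 libraries.

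Markers of the sorted cells and of other cells also differed between the lineages. Of the 8 CAR cell markers 0 were at 3 counts or fewer in every library, and their summed CPM was 28896, 30068 and 28899 in Dlx5CE-E12.5 replicates 1, 2 and 3 against 11811 and 7997 in Fgfr3CE-E12.5 replicates 2 and 3. Of them, 5 were called higher in Dlx5CE-E12.5 cells, among them Cxcl12 (22405, 22351 and 21252 CPM against 8068 and 5802 CPM), the gene whose reporter was used for sorting and the most abundant of the list, while Foxc1 was called higher in Fgfr3CE-E12.5 cells. All 8 leukocyte markers were higher in Fgfr3CE-E12.5 cells, as were 16.4% of all genes tested (13.1% were higher in Dlx5CE-E12.5 cells), with sums of 426, 379, 335, 1114 and 2315 CPM in the same library order, with Lcp1 the most abundant in both Fgfr3CE-E12.5 libraries and Coro1a or Lcp1 in the others. All 8 neutrophil markers were too (2578, 3052, 2439, 6787 and 16721 CPM, led by Mpo in Dlx5CE-E12.5 replicate 1 and by Ngp in the others), and 5 of 6 tested macrophage markers (75.5, 103, 66.5, 168 and 232 CPM, led by C1qb or C1qc in Dlx5CE-E12.5 libraries and by Csf1r in Fgfr3CE-E12.5 libraries). Each leukocyte and neutrophil marker was higher in Fgfr3CE-E12.5 replicate 3 than in replicate 2, and so was each erythroid and endothelial marker. No chondrocyte marker was. Replicate 3 was the library with the lowest Igf1, Igf1r, Igf2r, Igfbp3 and Igfbp5. The sort took GFP-high tdTomato+ cells, and the published gating of such cells leaves out those with CD45, Ter119 or CD31 on their surface, which would remove leukocytes, erythroid and endothelial cells; the description of the sort for these libraries does not name that step. The part of these cells in the IGF differences was not tested.

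Other lists gave further values, and their counts of called genes stand against 13.1% of all genes tested for higher in Dlx5CE-E12.5 and 16.4% for higher in Fgfr3CE-E12.5 cells. Chondrocyte markers summed to 133, 125 and 128 CPM in Dlx5CE-E12.5 libraries, where 4 of 8 were at 3 counts or fewer in every library, and to 3202 and 426 CPM in Fgfr3CE-E12.5 libraries, with Col2a1 the most abundant in the latter. Of these 2 were tested, and Col2a1 was called higher in Fgfr3CE-E12.5 cells, while Sox9 (124, 117 and 122 CPM against 96.8 and 53.7 CPM) was not called and makes up most of the sum in Dlx5CE-E12.5 cells. Osteoblast markers summed to 3090, 2269, 2265, 4645 and 4536 CPM (3 of 7 tested higher in Fgfr3CE-E12.5 cells and 1 in Dlx5CE-E12.5 cells, the most abundant being Ibsp, not called, in Dlx5CE-E12.5 libraries and Alpl in Fgfr3CE-E12.5 libraries). Erythroid markers summed to 36294, 17799, 23428, 13872 and 20634 CPM (2 of 8 higher in Dlx5CE-E12.5 cells, led by Hbb-bs), and the B cell list to 934, 864, 842, 616 and 608 CPM (2 of 6 tested higher in Fgfr3CE-E12.5 cells), led by Ebf1, which stromal cells also express and which was the 1 gene of that list higher in Dlx5CE-E12.5 cells. Mural markers summed to 399, 233, 237, 282 and 223 CPM (3 of 6 tested higher in Fgfr3CE-E12.5 cells and 1 in Dlx5CE-E12.5 cells, led by Rgs5 in Dlx5CE-E12.5 replicate 1 and by Notch3 in the others), and endothelial markers to 45.4, 40.0, 26.0, 39.1 and 55.4 CPM (0 of 1 tested, led by Pecam1). Of the markers called, Col2a1, Cd68, Igll1, Tagln, Mcam and Des reached the CPM minimum in libraries of 1 lineage only, a selection that favours a difference.

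Because Cxcl12 itself differed, each IGF gene was also set against it within each library, a ratio chosen after the values were seen. Counts of Igf1 per 1000 counts of Cxcl12 were 86.3, 84.4 and 82.3 in Dlx5CE-E12.5 replicates 1, 2 and 3, and 82.4 and 44.7 in Fgfr3CE-E12.5 replicates 2 and 3. On this scale Fgfr3CE-E12.5 replicate 2 lay within the Dlx5CE-E12.5 libraries and replicate 3 alone was low. Igfbp4 stood at 140, 128 and 117 per 1000 against 752 and 752, equal in both Fgfr3CE-E12.5 libraries to 3 digits. Igfbp7 stood at 2.31, 2.47 and 4.51 against 57.7 and 69.3. Both of these were higher in Fgfr3CE-E12.5 cells on either scale. Igfbp5, at 222, 250 and 276 against 173 and 138, and Igf1r, at 3.47, 4.08 and 4.47 against 3.02 and 3.31, remained lower in both Fgfr3CE-E12.5 libraries. Igf2r (1.69, 1.97 and 2.02 against 2.29 and 2.15) and Igfbp3 (26.1, 18.2 and 29.5 against 39.4 and 37.7) changed direction and were higher in Fgfr3CE-E12.5 cells relative to Cxcl12. Igfbp2 did not overlap (0.182 to 0.638 against 0.115 and 0.177) and Igfbp6 did. The ratio shows unequal change only and was given no test.

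**Figure D4:**
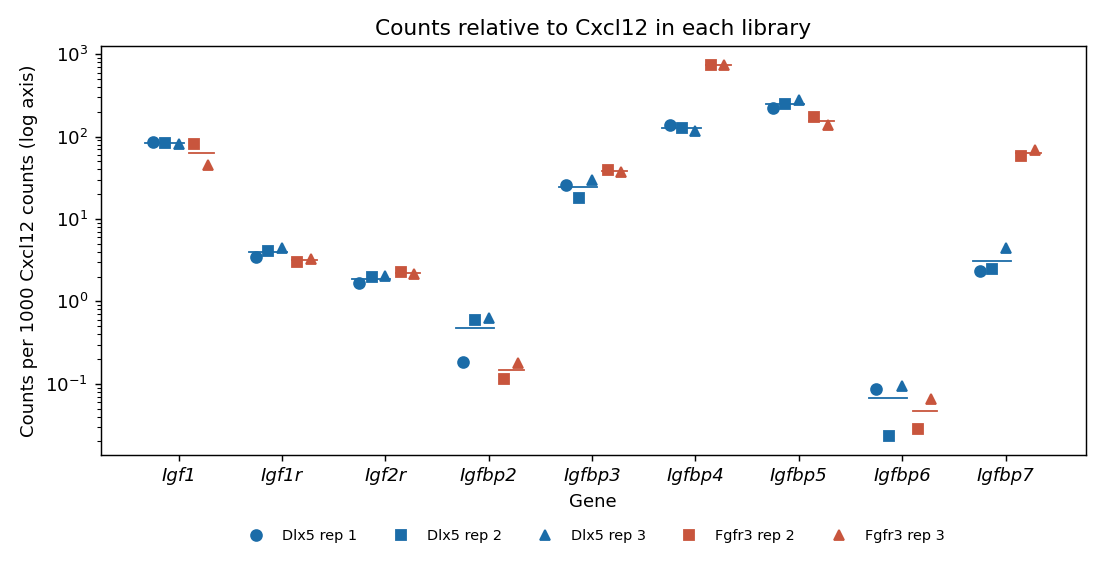
Counts of each IGF gene per 1000 counts of Cxcl12 (log axis) in each library, with a line at each group's mean; blue, Dlx5CE-E12.5; red, Fgfr3CE-E12.5. Igf1 in Fgfr3CE-E12.5 replicate 2 (82.4) falls among the Dlx5CE-E12.5 libraries, and Igfbp4 is at 752 in both Fgfr3CE-E12.5 libraries.

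Beyond these 9, 93 other genes of the pathway were listed, of which 89 were in the table and 80 were tested. Of the 80, 16 were higher in Dlx5CE-E12.5 cells and 17 in Fgfr3CE-E12.5 cells, 41.2% called against 29.5% of all genes tested, with a median log2 fold change of -0.08. The split depended on the setting, with 7 and 15 called in limma on the rlog values, 7 and 13 in the test of a change above 2-fold, 19 and 13 without Fgfr3CE-E12.5 replicate 2, and 10 and 15 without Fgfr3CE-E12.5 replicate 3. Of the 33 called, Pik3cb, Hras, Phlpp2, Igf2bp1 and Igf2bp3 reached the CPM minimum in libraries of 1 lineage only, a selection that favours a difference, which leaves 14 others in each direction and a median log2 fold change of -0.12 without the 5. Ins1, Ins2, Igfbp1 and Irs4 were not analysed here.

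Among the other ligands and binding partners, 2 of 3 tested genes were higher in Dlx5CE-E12.5 cells (66.7%; for all genes tested, 13.1% in that direction and 29.5% in either). Igf2, the second IGF ligand, had 2667, 1278 and 1271 counts in Dlx5CE-E12.5 libraries and 832 and 976 in Fgfr3CE-E12.5 libraries (log2 fold change -2.19, SE 0.26, adjusted p = 0.000757 in edgeR). It was the most abundant of its list per kilobase in Dlx5CE-E12.5 cells, at 11.5 CPM per kilobase, against 187 for Igf1. Since 62.1% of its 50-base windows occur in other annotated genes, its counts are uncertain. Counts of Igf1 per count of Igf2 were 22.2, 31.4 and 34.6 against 49.2 and 16.8, and these ranges overlapped. Insr, the insulin receptor, was lower in Fgfr3CE-E12.5 cells (log2 fold change -1.18, SE 0.29, adjusted p = 0.0146 in edgeR), a call lost in 6 of 18 alternatives, including those without Dlx5CE-E12.5 replicate 2 or Fgfr3CE-E12.5 replicate 3. Per kilobase, Igf1r stood at 5.24 and Insr at 2.05 CPM in Dlx5CE-E12.5 cells, and at 1.30 and 0.903 CPM in Fgfr3CE-E12.5 cells. Counts of Igf1r per count of Insr were 4.11, 2.55 and 3.19 in Dlx5CE-E12.5 libraries and 1.82 and 1.68 in Fgfr3CE-E12.5 libraries. Igfals, the acid-labile subunit of the circulating complex and the most abundant of this list per kilobase in Fgfr3CE-E12.5 cells (3.14), was not called (log2 fold change -0.32).

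The growth hormone axis, which drives Igf1 transcription in liver and other tissues, had 2 of 6 tested genes higher in Dlx5CE-E12.5 cells, a share of 33.3%; over all genes tested it was 13.1% in that direction and 29.5% in either. Limma on the rlog values called 0 in that direction, where 3 had an unadjusted p under 0.05. In the other direction 0 were called by edgeR, DESeq2 or limma, and 1 had an unadjusted p under 0.05 in edgeR and in DESeq2 and 2 in limma. The receptor Ghr was at 498 ± 38.9 CPM (SD, n = 3) against 193 ± 68.8 CPM (SD, n = 2), a log2 fold change of -1.37 (SE 0.24, adjusted p = 0.00356 in edgeR), in the same direction as Igf1. Cish, a feedback inhibitor, had a log2 fold change of -1.08 (SE 0.20, adjusted p = 0.00475 in edgeR). The call on Ghr held in 15 of 18 alternatives and that on Cish in 13. Both were lost in limma, in the test of a change above 2-fold and without Fgfr3CE-E12.5 replicate 3, and that of Cish also with library size alone and without Dlx5CE-E12.5 replicate 3. Stat5b, the most abundant of the list per kilobase in Fgfr3CE-E12.5 cells, was at 24.1 and 24.6 CPM per kilobase in the lineages.

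Of 6 tested proteases of binding proteins and their inhibitors, 1 was called (16.7%, against 29.5% of all genes tested, or 13.1% in its direction, higher in Dlx5CE-E12.5 cells). Pappa, which encodes the protease of IGFBP4, was at 265 ± 45.6 CPM (SD, n = 3) in Dlx5CE-E12.5 cells and 104 ± 53.1 CPM (SD, n = 2) in Fgfr3CE-E12.5 cells, opposite in direction to Igfbp4 (log2 fold change -1.36, SE 0.33, adjusted p = 0.0139 in edgeR). The call on Pappa was lost in 4 of 18 alternatives, namely limma on the rlog values, the test of a change above 2-fold, the fit without Fgfr3CE-E12.5 replicate 3 and the removal of the length trend. Htra1, a serine protease that cleaves IGFBP5 and the most abundant of the list per kilobase in Dlx5CE-E12.5 cells (273 against 144), missed the fold threshold (log2 fold change -0.92), and Ctsd led the list in Fgfr3CE-E12.5 cells (219 CPM per kilobase) with a log2 fold change of 0.28.

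Related proteins with an IGFBP domain went both ways, with 2 of 7 tested higher in Dlx5CE-E12.5 cells and 2 in Fgfr3CE-E12.5 cells, 57.1% called against 29.5% of all genes tested. Esm1 (endocan) was at 1205 ± 24.6 CPM (SD, n = 3) against 252 ± 129 CPM (SD, n = 2), a log2 fold change of -2.26, and Crim1 had one of -1.74. Ccn2 (connective tissue growth factor) had 7288, 8138 and 13189 counts in Dlx5CE-E12.5 libraries and 127029 and 109770 in Fgfr3CE-E12.5 libraries, a log2 fold change of 2.31 (SE 0.32, adjusted p = 0.00127 in edgeR). Ccn4 had a log2 fold change of 2.35. Ccn1, the most abundant of the list per kilobase in both lineages (1315 and 1581), did not differ by the test (log2 fold change 0.27).

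Downstream of the receptor, adaptors and brakes had 3 of 14 tested genes higher in Dlx5CE-E12.5 cells and 4 in Fgfr3CE-E12.5 cells, 50% called against 29.5% of all genes tested (13.1% and 16.4% by direction). The substrate Irs1, the phosphatase Ptpn11 and the ubiquitin ligase Nedd4 had log2 fold changes of -1.84, -1.46 and -1.41, and were called in 18, 17 and 15 of 18 alternatives. The adaptors Grb2, Crk and Gab1 had log2 fold changes of 2.32, 1.49 and 1.01, and the brake Grb14 had one of 1.02. Grb14 and Gab1 were each called in 11 of 18 alternatives. Neither was called without Dlx5CE-E12.5 replicate 1 or without Fgfr3CE-E12.5 replicate 2, and Grb14 was not called without Dlx5CE-E12.5 replicate 3. Socs3 was the most abundant of the list per kilobase in both lineages, at 334 and 213 CPM per kilobase, and was not called.

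In the PI3K and AKT branch, 5 of 25 tested genes were higher in Dlx5CE-E12.5 cells and 6 in Fgfr3CE-E12.5 cells, 44% called against 29.5% of all genes tested (13.1% and 16.4% by direction). These include Phlpp2 and Pik3cb, which entered through 1 lineage only. Foxo3, Phlpp2, Pik3r1 and Gsk3b had log2 fold changes of -2.41, -1.68, -1.43 and -1.28, and were called in 18, 17, 16 and 14 of 18 alternatives. The call on Gsk3b was lost without Fgfr3CE-E12.5 replicate 3, among others. Akt1 was at 41.7 ± 1.14 CPM (SD, n = 3) in Dlx5CE-E12.5 cells and 411 ± 87.2 CPM (SD, n = 2) in Fgfr3CE-E12.5 cells (log2 fold change 3.30, SE 0.17, adjusted p = 4.3e-05 in edgeR). Gsk3a had a log2 fold change of 2.02. Pik3cb had 5, 1 and 6 counts in Dlx5CE-E12.5 libraries and 712 and 1377 in Fgfr3CE-E12.5 libraries, a log2 fold change of 6.72 (SE 0.52, adjusted p = 0.000135 in edgeR) that is imprecise because the Dlx5CE-E12.5 counts are near the smallest detectable amount of 3. Eif4ebp1 was the most abundant of the list per kilobase in Dlx5CE-E12.5 cells (38.1 CPM per kilobase), and Akt1 in Fgfr3CE-E12.5 cells (100 CPM per kilobase).

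The RAS and ERK branch had 4 of 12 tested genes higher in Fgfr3CE-E12.5 cells (a share of 33.3%; over all genes tested it was 16.4% in that direction and 29.5% in either), and the 4 include Hras, which entered through 1 lineage only. In the other direction 0 were called by edgeR, DESeq2 or limma, while 3 had an unadjusted p under 0.05 in edgeR and in DESeq2 and 2 in limma. Hras had 99, 45 and 48 counts in Dlx5CE-E12.5 libraries and 2406 and 2906 in Fgfr3CE-E12.5 libraries, a log2 fold change of 4.12 (SE 0.27, adjusted p = 7.5e-05 in edgeR). Mapk3 had a log2 fold change of 1.20 and was called in 17 of 18 alternatives. Exons of other genes cover 0% of the exon bases of Akt1, Hras and Pik3cb, and 5.19% of the 50-base windows of Pik3cb and 0% of those of Akt1 and Hras occur in other genes. Akt1, Hras and Pik3cb are expressed in most cell types. In Dlx5CE-E12.5 libraries Akt1 had 1261, 869 and 1081 counts, while Hras and Pik3cb had far fewer. Whether these counts reflect transcript levels was not tested, so the folds given for these genes are uncertain. Genes outside the pathway also showed large differences with small SEs, such as Rpl10 (log2 fold change -4.09, SE 0.17) and Hnrnpd (3.60, SE 0.15). The same question was not tested for any other gene, the IGF genes included. The part of sequencing mode in these values was not tested. Map2k1 led the list per kilobase in Dlx5CE-E12.5 cells (35.1) and Mapk3 in Fgfr3CE-E12.5 cells (45.0).

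Of the genes of mannose 6-phosphate sorting, in which IGF2R also takes part, 0 of 4 were called by edgeR, DESeq2 or limma. Of all genes tested, 29.5% were called in edgeR, and 4 genes are few to set against that share. In this list 0 had an unadjusted p under 0.05 in edgeR, DESeq2 or limma. The most abundant, M6pr, was at 52.6 and 47.5 CPM per kilobase. Of the IGF2 mRNA binding proteins, Igf2bp1 had a log2 fold change of -2.85 and Igf2bp3 one of 2.00. Each entered through 1 lineage only, where it is high, a selection that favours a difference. Igf2bp2, the most abundant of the list per kilobase in both lineages, was at -0.16.

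Some of these genes share sequence with other annotated genes, which leaves their counts uncertain. The share of their 50-base windows found elsewhere was 32.4% for Ctsd, 30.5% for Irs1, 25.7% for Gsk3a, 18.1% for Igf2bp3 and 17.2% for Ccn2, against 0% for 7 of the 9 IGF genes, 1.72% for Igfbp4 and 2.99% for Igfbp7.

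**Figure D5:**
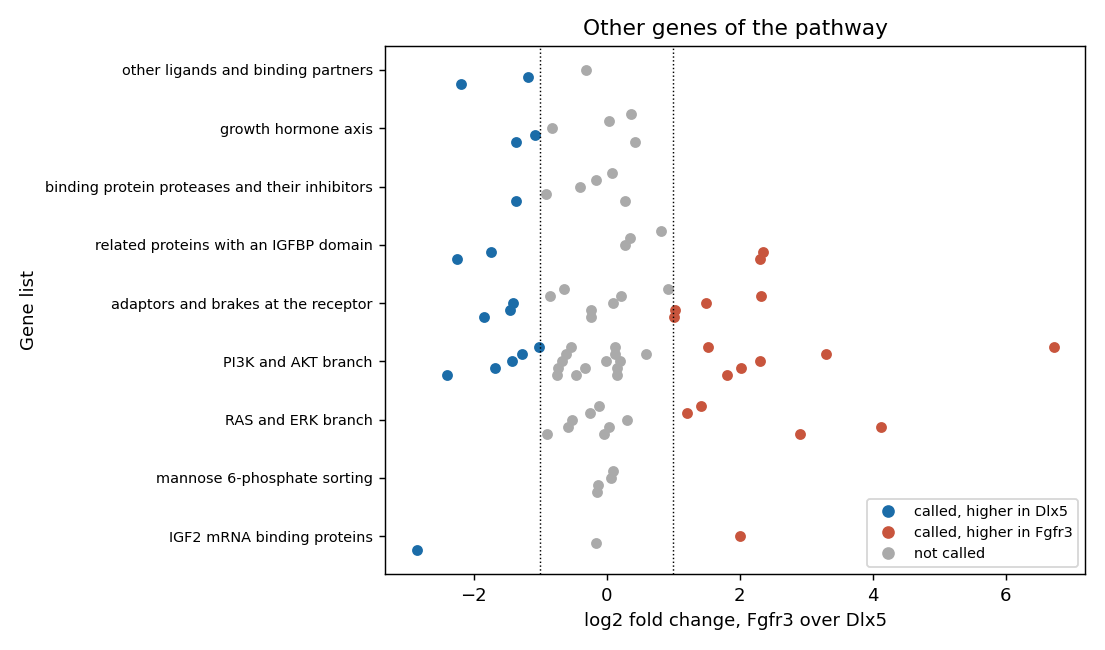
Each point is a tested gene of the pathway lists; the x axis is its log2 fold change, Fgfr3CE-E12.5 over Dlx5CE-E12.5, with dotted lines at the fold threshold and points spread vertically for legibility. Calls lie on both sides in 4 of the 9 lists, among them the IGF2 mRNA binding proteins, whose calls entered through 1 lineage only. The point farthest to the right is Pik3cb, whose Dlx5CE-E12.5 counts (5, 1 and 6) are near the smallest detectable amount.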

How the data were processed

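RNA of sorted cells was amplified with a SMART-Seq kit without molecular identifiers and made into Nextera XT libraries. Per the labels and the submitters' processing notes, the authors aligned reads to mm10 with TopHat2 2.0.13 and Bowtie2 2.2.1 and deposited raw counts per Ensembl gene. The counting program's role and strand setting were not given in the sources used here. The authors also deposited rlog values, a log2 transformation by DESeq2 that shrinks low counts, used for 1 alternative, and depth-normalized counts, not used here.

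Counts were fitted in edgeR 4.0.16 (R 4.3.3) with TMM normalization and the quasi-likelihood test, Fgfr3CE-E12.5 over Dlx5CE-E12.5 with no covariate, over the 10088 genes for which 2 or more libraries reached a CPM of 10, with Benjamini-Hochberg adjustment. The SE of a log2 fold change is its size divided by the square root of F. Gene types, exon lengths and positions came from GENCODE M21 on GRCm38, in which 29965 identifiers were found. Exon length is the union of all annotated exons, which for Igf1 (9904 bases) spans many isoforms, so levels per kilobase depend on it. Libraries differed by more than sampling noise and were each counted as 1 sample. Intervals at the floor of 3 counts cover counting error only. The fit was tested on simulated counts.

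The IGF genes, lists and tests were chosen with earlier results of these data known. Every IGF gene is named; from each other list, up to 4 called genes in each direction by adjusted p and the most abundant per kilobase in each lineage are named, and the 3 nearest patterns are named for Igf1 and Igfbp4. Some genes that this rule selects are not reported here. Alternatives were other scalings, tests (DESeq2 1.42.0, limma 3.58.1), filters, thresholds, a replicate block, the omission of single libraries, and removal of GC and length trends. Promoters came from RefSeq, GRCm38.p6.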

Additional observations from a re-analysis of the deposited data

Results flagged for a closer look

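Airn, a noncoding transcript that starts within Igf2r on the opposite strand, was not part of the protein-coding comparison and gave a signal above the smallest detectable amount of 3 counts in every library. It had 283, 297 and 276 counts in Dlx5CE-E12.5 replicates 1, 2 and 3, and 240 and 132 in Fgfr3CE-E12.5 replicates 2 and 3. In CPM it was at 9.23, 14.0 and 11.0 against 3.90 and 2.08, lower in both Fgfr3CE-E12.5 libraries, as Igf2r was. In a fit of every feature for which 2 or more libraries reached a CPM of 1, its log2 fold change was -1.82 (adjusted p = 0.00567 in edgeR). No exon of Airn overlaps an exon of Igf2r, though 114 bases of its exons lie within the Igf2r gene. Without a stated strand setting, reads of unspliced Igf2r transcripts and of Airn cannot be told apart within these 114 bases.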

How the results depend on the processing

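Of the 7 IGF genes called, Igf1, Igf1r, Igfbp2, Igfbp5 and Igfbp7 were called in all alternatives that tested them (18 each, 16 for Igfbp2), Igf2r in 16 and Igfbp3 in 9, and none of the 8 tested genes reversed; Igfbp6 was fitted only with the CPM minimum of 1, where it was called but entered through Dlx5CE-E12.5 libraries alone, and with no filter, where it kept its direction and was not called. The IGF genes called numbered 5 to 8 over the alternatives; 8 was reached with adjusted p alone, and with the CPM minimum of 1 only by counting Igfbp6, without which it was 7. With adjusted p alone as the threshold, 4880 genes were called in all. Every gene called by the main rule is called there by construction, so that alternative does not test those calls. The test of a change above 2-fold called 1670 genes in all and 20 of the other pathway genes, against 33. Of the 33, 16 were called in all 18 alternatives, among them Igf2bp1, which entered through Dlx5CE-E12.5 libraries only. Pik3cb, Hras and Igf2bp3, which entered through Fgfr3CE-E12.5 libraries only, were called in the 16 that tested them. Such a selection favours a difference, also for Igfbp2, which entered through Dlx5CE-E12.5 libraries only. Library size alone in place of TMM moved the median log2 fold change of all genes from 0.01 to 0.22 and the split of all calls from 1318 higher in Dlx5CE-E12.5 and 1653 higher in Fgfr3CE-E12.5 cells to 1009 and 1985; the rlog values gave 711 and 1440. It ended the call on Igfbp3 and brought in Igfbp4. Igfbp4 kept its direction throughout (0.68 to 1.16). With the replicate block, 3060 genes were called in all and 6 IGF genes, without Igfbp3 (log2 fold change -0.94). Same-numbered libraries share only a number. Their deviations from the mean of their lineage correlated at 0.13 and -0.05. Dlx5CE-E12.5 replicate 1 and Fgfr3CE-E12.5 replicate 3, which differ in number, also gave 0.13. With 2 Fgfr3CE-E12.5 libraries, their deviations mirror each other, so these values cannot show a pairing. A fit that leaves 1 Fgfr3CE-E12.5 library takes its spread from the Dlx5CE-E12.5 libraries. The spread within Fgfr3CE-E12.5 cells rests on 2 libraries.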
